A study of Mus musculus with 4 samples.

Results

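Arterial endothelial cells line the arteries and arterioles that carry blood into the brain, upstream of the capillary bed. In mouse brain they are known by Gkn3, Bmx, Sema3g and Vegfc. They are specified through Notch signalling, with ligands such as Dll4 and Jag2 and the target gene Hey1, and they sit inside a coat of smooth muscle that they relax or constrict through nitric oxide and endothelins. They were examined here in hippocampus and sensory cortex of wild-type mice after DOCA-salt or sham treatment. DOCA (deoxycorticosterone acetate) is a mineralocorticoid that, given with salt, is used to raise blood pressure in rodents.

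There were 4 droplet libraries of the 3' ends of transcripts, 1 for DOCA-salt and 1 for sham in hippocampus, and the same in cortex. Per the labels each group comprised 3 mice, with no statement on pooling. Strain, sex, age and length of treatment are not given in the sources used here. All groups share the wild-type genotype. Groups were taken from the library titles. In 2 libraries, cortex DOCA-salt and hippocampus sham, the treatment field of the labels contradicts the title, so each direction between treatments rests on the titles.

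A barcode was called arterial when it passed an endothelial gate, held at least 2 of 6 arterial genes (Gkn3, Bmx, Sema3g, Vegfc, Mgp and Hey1) with a unique molecular identifier (UMI), and held fewer than 3 of 8 venous or activation genes. The gate asked for at least 4 of 7 endothelial genes, at most 1 of 4 mural genes and at most 1 of 3 microglial and oligodendrocyte genes, and a minimum of 300 genes per barcode with mitochondrial UMIs no higher than 20%. The members were thus chosen by the UMI counts of these genes in each barcode. This gave 313 arterial cells of 45315 barcodes. They were 88 cells in hippocampus DOCA-salt, 91 in hippocampus sham, 75 in cortex DOCA-salt and 59 in cortex sham, out of 855, 725, 601 and 676 endothelial cells in that order. The remaining endothelial cells were 2133 capillary cells, with fewer than 2 arterial genes, and 411 venous or activated cells, with 3 or more of the 8 venous or activation genes.

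The arterial cells held 407600 UMIs in hippocampus DOCA-salt, 442621 in hippocampus sham, 311355 in cortex DOCA-salt and 273043 in cortex sham. Their median depth was 3842 to 4402 UMIs per cell, against 3223 to 3418 in capillary cells. A deeper cell is more likely to show 2 of the rule genes, so depth enters the rule itself. Levels are given as counts per 1000000 UMIs (CPM) of the summed cells. With 1 library per group no test was possible, and no p-value is given. Ratios carry exact 95% intervals of counting error, which hold no difference between animals or preparations, and UMIs of 1 cell are not independent samples of a condition.

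Libraries differed in RNA that arterial cells should lack. The choroid plexus list, almost all of it Ttr, stood at 39.3 CPM in arterial cells of hippocampus DOCA-salt, against 5165 CPM in hippocampus sham, and at 6.42 CPM in cortex DOCA-salt, against 18.3 CPM in cortex sham. Astrocyte markers summed to 3494 CPM in hippocampus DOCA-salt, against 1360 CPM in hippocampus sham, and to 4998 CPM in cortex DOCA-salt, against 6907 CPM in cortex sham. Oligodendrocyte markers summed to 3663 CPM in hippocampus DOCA-salt, against 7209 CPM in hippocampus sham, and to 4458 CPM in cortex DOCA-salt, against 2842 CPM in cortex sham. Leaving out cells rich in RNA of other types, a step chosen after the data were seen, kept 71 cells in hippocampus DOCA-salt, 77 in hippocampus sham, 50 in cortex DOCA-salt and 36 in cortex sham. Pairs of libraries shared 94 to 105 barcode sequences, and 0 arterial barcodes were arterial in both libraries of a pair.

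The 6 rule genes were spread unevenly over the cells. Most cells met the rule with exactly 2 genes, and 36 of 88 cells in hippocampus DOCA-salt (40.9%), 36 of 91 in hippocampus sham (39.6%), 33 of 75 in cortex DOCA-salt (44.0%) and 17 of 59 in cortex sham (28.8%) held 3 or more. Over all 313 cells the most frequent pairs were Sema3g with Hey1, in 86 cells, Sema3g with Mgp, in 83, and Mgp with Hey1, in 75. Bmx with Vegfc was the rarest pair, in 24 cells. Since these genes chose the cells, their levels are a description.

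Gkn3 (ENSMUSG00000030048, GRCm38 chromosome 6, 87383256 to 87388935), a secreted protein of the gastrokine family that marks brain arteries, had 331 CPM in arterial cells of hippocampus DOCA-salt, against 219 CPM in hippocampus sham (1.51 times, 1.16 to 1.98). In cortex it had 170 CPM in DOCA-salt, against 176 CPM in sham. Capillary cells held 0.654 to 5.75 CPM of it, a level that the rule keeps low. Mgp, an inhibitor of vessel calcification, had 704 CPM in hippocampus DOCA-salt, against 926 CPM in hippocampus sham, and 585 CPM in cortex DOCA-salt, against 461 CPM in cortex sham. Hey1, the Notch target, was at 157 CPM in hippocampus DOCA-salt, against 178 CPM in hippocampus sham, and at 186 CPM in cortex DOCA-salt, against 146 CPM in cortex sham. Sema3g, a secreted semaphorin, was at 142 CPM in hippocampus DOCA-salt, against 181 CPM in hippocampus sham, and at 199 CPM in cortex DOCA-salt, against 190 CPM in cortex sham. These genes kept no common direction between treatments in the 2 tissues.

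Genes that the rule did not use followed the same division. Of 15 further arterial genes, 11 were higher in arterial than in capillary cells of all 4 libraries, at unequal depth. They include Efnb2, the arterial ephrin ligand (2.0 to 3.07 times), Gja4, which encodes connexin 37 (4.90 to 7.37 times), and Unc5b, a netrin receptor (1.94 to 2.16 times). Alpl, the alkaline phosphatase of arterial endothelium, stood at 2.05 to 3.77 times, Edn1, the endothelin-1 gene, at 1.54 to 2.71 times, and Dll4 at 1.44 to 1.98 times. Sox17, a transcription factor of arterial fate, differed less, at 1.06 to 1.54 times. Among these named genes, intervals held 1 for Sox17 in both cortex libraries, Dll4 in hippocampus sham (0.915 to 2.20) and Efnb2 in cortex sham (0.843 to 4.28). Cxcl12, a chemokine, was lower in arterial cells of all 4 libraries, at 0.774 to 0.945 times. Jag1 went both ways, and Gja5 and Cytl1 were at 0 UMIs in arterial cells of at least 1 library. With cells thinned to an equal number of UMIs, Dll4 was lower in arterial cells of hippocampus sham (52.4 against 55.6 CPM). Sox17 was then equal in cortex sham (289 against 289 CPM). Fbln5, another of the 11, was then at 0 CPM in arterial cells of every library but hippocampus DOCA-salt. The rest of the 11 stayed higher in all 4 libraries, and Jag1 was then higher in all 4. The contrast with capillary cells is the one the rule made, so these are values with no test.

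The capillary genes ran the other way. Car4, a carbonic anhydrase on the capillary surface, was at 0.228 to 0.336 times the capillary level, Slc16a1, a lactate transporter, at 0.304 to 0.490 times, and Slc22a8, an organic anion transporter, at 0.444 to 0.632 times. Mfsd2a, the lipid transporter of the blood-brain barrier, stood at 0.760 to 0.846 times and Spock2 at 0.896 to 1.02 times. The arterial cells thus carried measurable RNA of capillary genes.

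**Figure D1:**
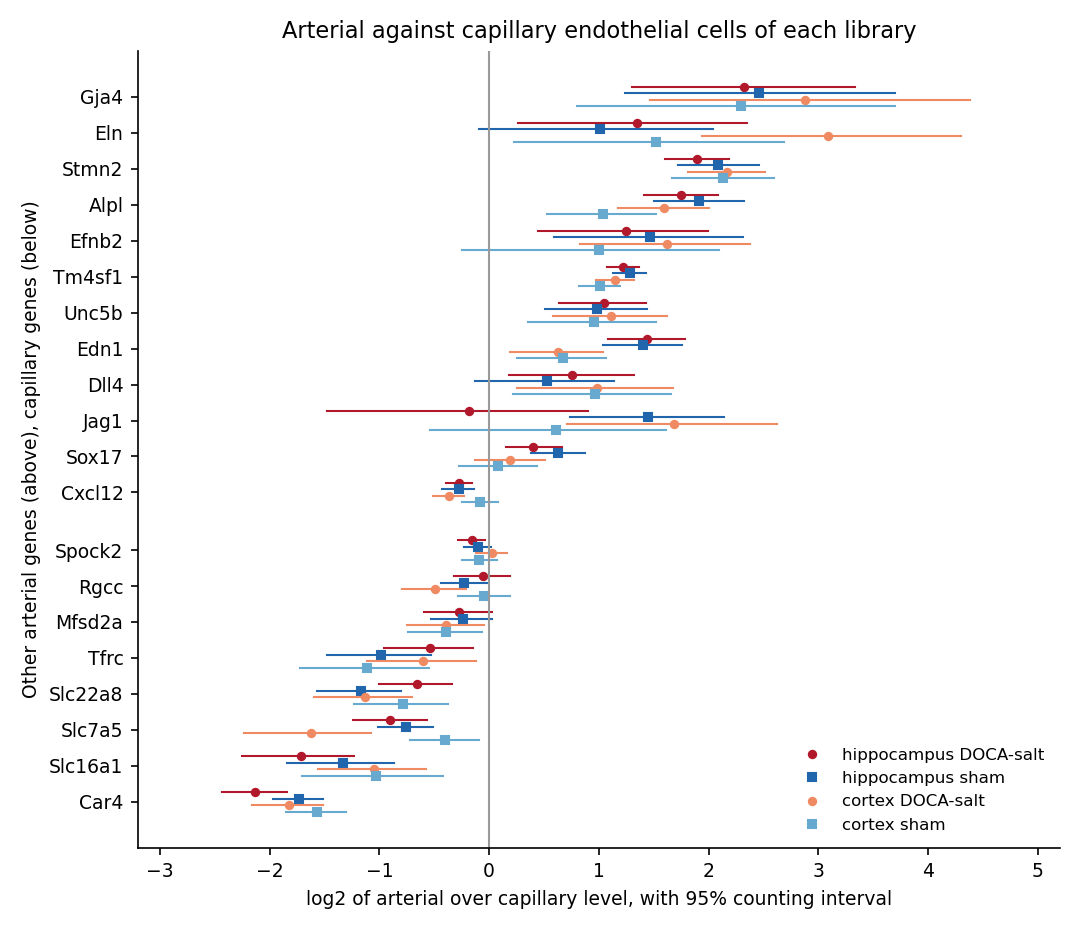
log2 ratio of the arterial over the capillary level of each gene (x axis), with its 95% counting interval, in each of the 4 libraries (circles for DOCA-salt, squares for sham). Arterial genes that the rule did not use stand above capillary genes; Fbln5, Gja5 and Cytl1 are not drawn because they had few UMIs. Gja4 lies at 4.90 to 7.37 times and Car4 at 0.228 to 0.336 times.

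Cells just inside and just outside the threshold of 2 genes differed as follows. In hippocampus DOCA-salt the other arterial genes summed to 4209 CPM in cells just inside, with 2 rule genes, against 3976 CPM just outside, with 1, and the capillary genes to 3151 CPM against 4052 CPM. In hippocampus sham the other arterial genes summed to 3345 CPM with 2 rule genes, against 3221 CPM with 1, and the capillary genes to 3240 CPM against 4793 CPM. In cortex DOCA-salt the sums were 4246 CPM with 2, against 3674 CPM with 1, for the other arterial genes and 3318 CPM against 3865 CPM for the capillary genes. In cortex sham they were 3104 CPM with 2, against 2647 CPM with 1, and 3385 CPM against 3800 CPM. Cells with 3 or more rule genes had 4572 to 5610 CPM of the other arterial genes and cells with none 2124 to 3272 CPM. The capillary sums did not fall throughout. They were higher with 3 or more rule genes than with 2 in both sham libraries (3454 against 3240 CPM in hippocampus sham and 3599 against 3385 CPM in cortex sham). With cells thinned to 3000 UMIs, the capillary sum in cortex DOCA-salt was 4133 CPM with 2 rule genes, against 4080 CPM with 1.

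**Figure D2:**
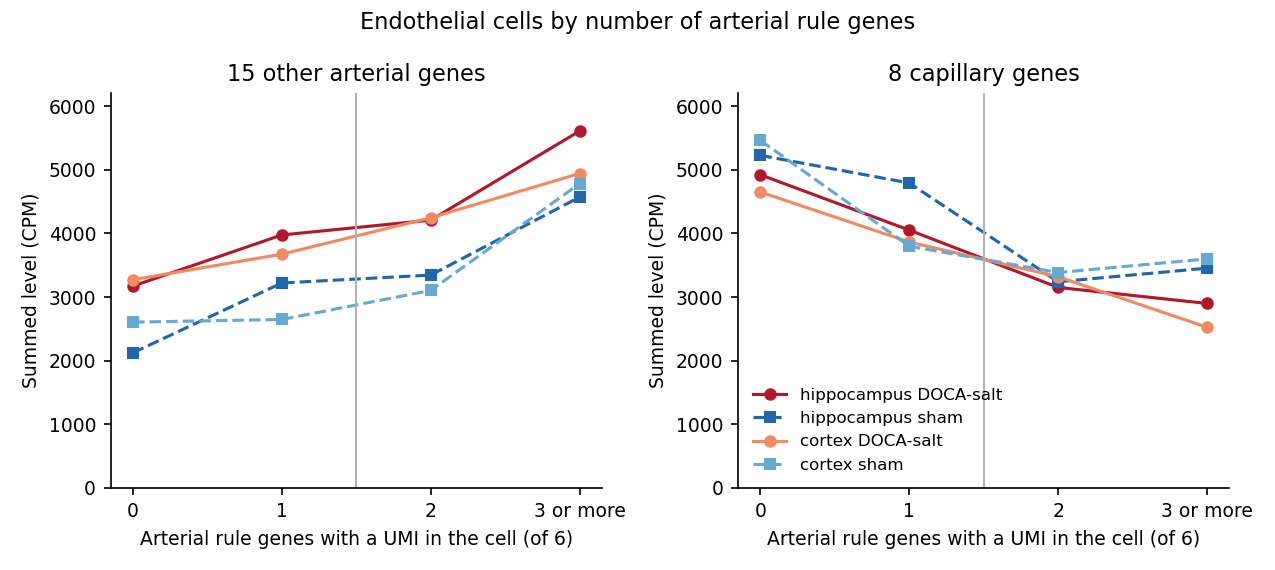
Summed level in CPM (y axis) of 15 arterial genes outside the rule (left) and of 8 capillary genes (right) in endothelial cells with 0, 1, 2 or at least 3 of the 6 rule genes (x axis), 1 line per library. The grey line marks the threshold; the arterial sum reaches 4572 to 5610 CPM at 3 or more genes.

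Among genes with at least 50 UMIs over arterial and capillary cells in all 4 libraries, 46 of 5452 (0.844%) were at least 1.5-fold higher in arterial cells of all 4 libraries and 30 (0.550%) at least 1.5-fold lower. With cells thinned to 3000 UMIs, which leaves fewer UMIs to count, 19 were higher. With at least 3 rule genes required, 70 were higher and 76 lower. With no mural gene allowed in the cells, 28 were higher. Egfl8 (ENSMUSG00000015467, chromosome 17, 34613349 to 34615971), a secreted protein with EGF-like repeats, led the mostly endothelial genes ranked by their weakest interval bound over the 4 libraries, a ranking with no minimum of 1.5-fold, at 5.98 to 14.7 times. It had 130 CPM in arterial cells, against 8.85 CPM in capillary cells, of hippocampus DOCA-salt, and 121 CPM, against 19.9 CPM, of cortex sham. The next were Stmn2 (3.72 to 4.48 times), Eps8l2 (3.22 to 4.40 times), Arl15 (2.61 to 3.63 times) and Edn3, the endothelin-3 gene (2.89 to 4.39 times). The others named by the same rule were Tm4sf1, Alpl, Cdh13, which encodes T-cadherin (2.13 to 4.35 times), Crip1, Epas1, the hypoxia-inducible factor 2 alpha gene (1.49 to 1.59 times), Rad54b, Sox18, S100a11 and Ptprm.

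Lowest in arterial cells beside Car4 were Tmsb10, an actin-binding thymosin (0.235 to 0.345 times), Ctla2a (0.319 to 0.460 times) and Tiam1, an activator of Rac (0.228 to 0.355 times). The list went on with Hmcn1, the amino acid transporter genes Slc38a3 (0.485 to 0.548 times) and Slc1a1 (0.515 to 0.539 times), Slc16a1, Arl4a and Slc22a8.

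By pathway, the Notch list held 2 genes at least 1.5-fold higher in arterial cells of all 4 libraries among 13 with enough UMIs, leaving out Hey1, which the rule itself sets high. They were the ligand gene Jag2 (1.67 to 2.18 times) and Sox18 (1.86 to 2.21 times). The receptor genes Notch1 (1.24 to 1.61 times) and Notch4 (1.36 to 1.71 times) were higher in all 4 at smaller size. Their intervals held 1 except for Notch1 in cortex sham and Notch4 in cortex DOCA-salt. The glycosyltransferase genes Mfng (0.517 to 0.938 times) and Lfng (0.533 to 0.921 times) were lower in all 4. With cells thinned to equal depth, Notch4 stayed higher in all 4. Notch1 was then lower in hippocampus DOCA-salt (133 against 136 CPM) and cortex sham (105 against 111 CPM), and higher elsewhere. Mfng was higher in hippocampus sham (90.5 against 84.8 CPM) and cortex sham (87.7 against 85.8 CPM), and lower elsewhere. Lfng was higher in cortex DOCA-salt (46.7 against 43.9 CPM) and lower elsewhere. In the list of VEGF, angiopoietin and TGF-beta signalling, Smad6, an inhibitor of BMP signalling, stood at 2.02 to 3.8 times. The VEGF co-receptor gene Nrp1 (0.579 to 0.635 times), the VEGF receptor gene Kdr (0.607 to 0.684 times) and Sema6a (0.385 to 0.661 times) were lower in all 4 libraries. Of the vasoactive genes, Edn1 was higher, and Adm, which encodes the dilator adrenomedullin, lower (0.243 to 0.651 times), while Nos3, the endothelial nitric oxide synthase gene, stood at 0.905 to 1.37 times. In the matrix list, Ltbp4, a binding protein of elastic fibres, stood at 1.43 to 1.84 times and Timp3 at 1.45 to 2.19 times. Arterial cells also held more mural RNA than capillary cells. Pericyte markers summed to 893 against 864 CPM in hippocampus DOCA-salt and 1227 against 567 CPM in hippocampus sham. In cortex they were 2001 against 718 CPM in DOCA-salt and 1480 against 527 CPM in sham. Smooth muscle markers were 277 against 123, 601 against 95.4, 466 against 88.9 and 721 against 137 CPM in the same order. The part of this RNA in these ratios was not tested.

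Arterial cells made up 10.3% (8.34 to 12.5%, exact binomial) of endothelial cells in hippocampus DOCA-salt, against 12.6% (10.2 to 15.2%) in hippocampus sham. The ratio was 0.820 (0.605 to 1.11). In cortex they made up 12.5% (9.94 to 15.4%) in DOCA-salt, against 8.73% (6.71 to 11.1%) in sham, a ratio of 1.43 (1.0 to 2.05). That ratio was 2.18 (1.18 to 4.18) with at least 3 rule genes required, and 2.25 (1.22 to 4.29) with Gkn3, Bmx, Sema3g and Vegfc alone. The ratios of the 2 tissues lay on opposite sides of 1, the hippocampal interval held 1, and the cortical one began at 1.0. Hippocampus over cortex was 0.825 (0.599 to 1.14) in DOCA-salt and 1.44 (1.03 to 2.03) in sham. After every cell was thinned to 3000 UMIs and the rule applied again, the shares were 9.12% in hippocampus DOCA-salt, against 10.6% in hippocampus sham, and 9.75% in cortex DOCA-salt, against 6.88% in cortex sham.

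The other endothelial cells differed as well. Venous or activated cells made up 20.6% (17.9 to 23.5%) of endothelial cells in hippocampus DOCA-salt, against 6.76% (5.04 to 8.84%) in hippocampus sham, and 17.6% (14.7 to 20.9%) in cortex DOCA-salt, against 11.8% (9.5 to 14.5%) in cortex sham. Of all kept barcodes, arterial cells were 0.783% in hippocampus DOCA-salt, against 0.810% in hippocampus sham, and 0.661% in cortex DOCA-salt, against 0.532% in cortex sham. The ratios over kept barcodes were 0.966 (0.712 to 1.31) and 1.24 (0.871 to 1.78).

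**Figure D3:**
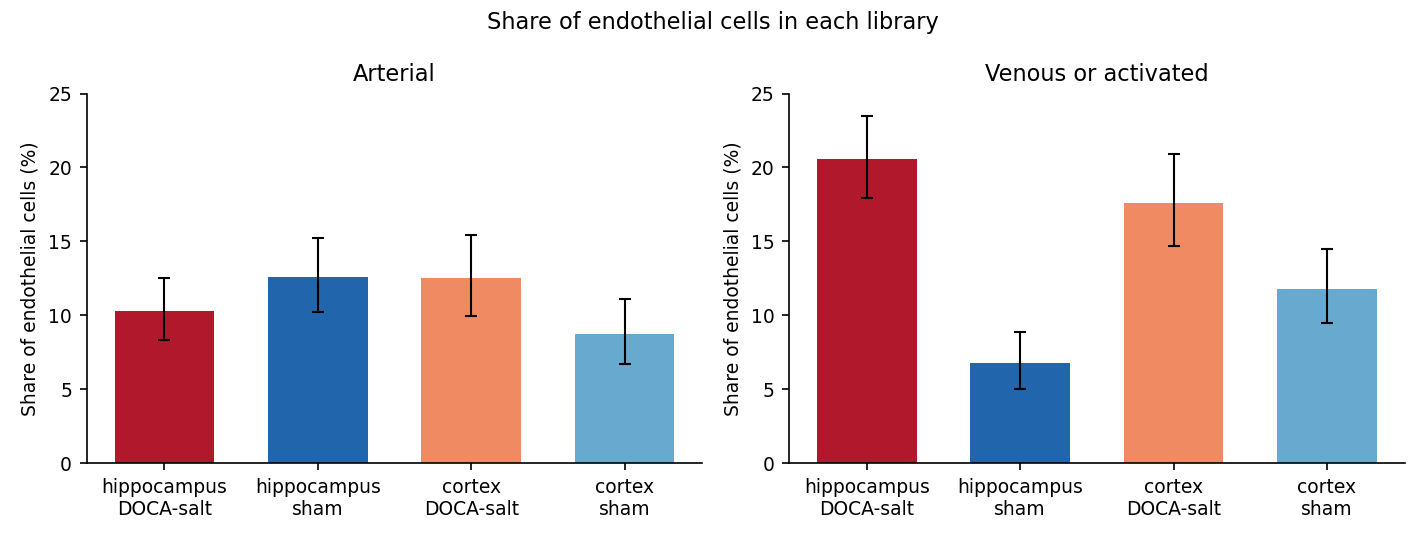
Share of endothelial cells (y axis, percent) called arterial (left) and venous or activated (right) in the 4 libraries, with exact 95% binomial intervals of counting error. Arterial shares lie between 8.73% and 12.6%; venous or activated shares reach 20.6% in hippocampus DOCA-salt.

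Vegfc (ENSMUSG00000031520, chromosome 8, 54077606 to 54187096), the growth factor of lymphatic and arterial endothelium, was among the genes that chose the cells, so its arterial level is a description. It had 52 UMIs in 30 of 88 cells of hippocampus DOCA-salt, against 21 UMIs in 17 of 91 cells of hippocampus sham, or 128 CPM against 47.4 CPM, a ratio of 2.69 (1.59 to 4.70). In cortex it had 37 UMIs in 23 of 75 cells of DOCA-salt, against 6 UMIs in sham, or 119 CPM against 22 CPM, a ratio of 5.41 (2.26 to 15.7) on fewer than the 50 UMIs asked for a count. A UMI of Vegfc was in 1.12 to 1.37% of capillary cells, which are limited to 1 arterial gene by the rule. It was also read over the whole endothelial gate, which the arterial genes did not shape. There it stood at 19.4 CPM in hippocampus DOCA-salt, against 12.5 CPM in hippocampus sham (1.55 times, 1.02 to 2.39), and at 20.5 CPM in cortex DOCA-salt, against 6.04 CPM in cortex sham (3.38 times, 1.92 to 6.25). Over the same gate Gkn3 stood at 1.05 (0.811 to 1.35) and 1.09 times (0.738 to 1.61), and Bmx, a Tec-family kinase gene, at 0.840 (0.527 to 1.34) and 2.76 times (1.56 to 5.07), hippocampus before cortex. Sema3g (0.636 times, 0.481 to 0.840) and Mgp (0.637 times, 0.562 to 0.722) lay below 1 there in hippocampus, where Hey1 stood at 0.837 times (0.658 to 1.06). In cortex Sema3g stood at 0.925 (0.682 to 1.25), Mgp at 1.46 (1.2 to 1.77) and Hey1 at 1.36 times (1.06 to 1.75). These values over the gate are unthinned, and the arterial direction of Mgp turned in both tissues on thinning.

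In hippocampus, 272 of 3009 genes with at least 50 UMIs over both libraries (9.04%) were at least 1.5-fold higher in arterial cells of DOCA-salt than of sham, and 239 (7.94%) at least 1.5-fold lower. In cortex, 148 of 2140 (6.92%) were at least 1.5-fold higher and 164 (7.66%) lower. In both tissues at once, 17 of 2084 (0.816%) were higher and 32 (1.54%) lower. These counts describe 4 libraries and hold counting error.

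The 6 genes named as higher in hippocampus over all genes were glial. Gpc5 had 444 CPM in DOCA-salt, against 36.1 CPM in sham, 12.3 times (7.36 to 22), and Lsamp, Cadm2, Npas3, Cldn10 and Rgs20 stood at 7.49 to 10.6 times. Without the cells rich in RNA of other types, Gpc5 stood at 0.990 times, Lsamp at 1.10, Cadm2 and Npas3 at 1.14, Cldn10 at 3.20 and Rgs20 at 3.43 times. In cortex, Ptgds (2.10 times), Trf (2.24), Qdpr (2.27) and Cldn11 (2.17), which oligodendrocytes also express, came down to 1.19, 1.22, 1.11 and 1.21 times without those cells. Kcnk1 (0.224 times in cortex) and Ank2 (0.344 times) were also named there and stood at 0.583 and 0.389 times without those cells. In cells with at least 3 rule genes the log2 ratios of Gpc5, Lsamp, Cadm2 and Npas3 in hippocampus and of Kcnk1 and Ank2 in cortex had the opposite sign. Genes at least 2-fold higher in endothelial cells than in other barcodes of all 4 libraries were therefore read on their own, a choice made after the data were seen. Of these, 33 of 630 (5.24%) were at least 1.5-fold higher and 67 (10.6%) lower in hippocampus, and 31 of 490 (6.33%) higher and 56 (11.4%) lower in cortex.

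Lmo2 (ENSMUSG00000032698), a transcriptional partner of endothelial and blood development, led the endothelial genes ranked as higher over both DOCA-salt libraries. It had 250 CPM in hippocampus DOCA-salt, against 129 CPM in hippocampus sham (1.94 times, 1.39 to 2.74), and 202 CPM in cortex DOCA-salt, against 87.9 CPM in cortex sham (2.30 times, 1.42 to 3.85). Capillary cells gave 1.39 and 1.46 times. Ifnar1 (ENSMUSG00000022967), a chain of the type I interferon receptor, had 172 CPM in hippocampus DOCA-salt, against 72.3 CPM in hippocampus sham (2.38 times, 1.54 to 3.73), and 170 CPM in cortex DOCA-salt, against 87.9 CPM in cortex sham (1.94 times, 1.17 to 3.28). In capillary cells its ratios were 1.17 (0.989 to 1.38) and 1.28 (1.06 to 1.56), both below the arterial ones. The capillary ratio of cortex lay within the arterial counting interval.

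The others were ranked by the interval bound nearest to 1 in the weaker tissue, with no minimum of 1.5-fold. Of these, Stmn2 and Apold1 reached 1.5-fold in both tissues. The list held Slc6a6, the taurine transporter gene (1.35 and 1.46 times), Stmn2 (1.54 and 1.84), Arl15 (1.49 and 1.67), Apold1 (1.52 and 1.5), Alpl (1.44 and 1.56), Cxcl12 (1.65 and 1.22), the endothelial transcription factor gene Erg (1.40 and 1.64) and Cav1, the coat protein gene of caveolae (1.42 and 2.71). Stmn2, Arl15 and Alpl are also among the genes that set arterial cells apart from capillary cells. Slc15a2, a peptide transporter gene, and Fryl were named over all genes, at 6.65 and 2.53 times and at 1.72 and 1.99 times. Slc15a2 stood at 6.74 and 2.48 times in capillary cells. Barcodes outside the endothelium held 197 CPM of it in hippocampus DOCA-salt, against 31.3 CPM in hippocampus sham, and 288 CPM in cortex DOCA-salt, against 122 CPM in cortex sham.

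Lower in arterial cells of both DOCA-salt libraries was Pglyrp1 (ENSMUSG00000030413), a peptidoglycan recognition protein gene. It had 608 CPM in hippocampus DOCA-salt, against 1362 CPM in hippocampus sham (0.447 times, 0.384 to 0.519), and 684 CPM in cortex DOCA-salt, against 1469 CPM in cortex sham (0.466 times, 0.393 to 0.551). Ramp2 (ENSMUSG00000001240), the partner of the adrenomedullin receptor Calcrl, had 1062 CPM in hippocampus DOCA-salt, against 1884 CPM in hippocampus sham (0.564 times, 0.501 to 0.634), and 1005 CPM in cortex DOCA-salt, against 1648 CPM in cortex sham (0.610 times, 0.526 to 0.706). Slc2a1, the glucose transporter gene of the barrier, had 1872 CPM in hippocampus DOCA-salt, against 2756 CPM in hippocampus sham (0.679 times, short of 1.5-fold), and 1609 CPM in cortex DOCA-salt, against 2556 CPM in cortex sham (0.629 times). In capillary cells the ratios of Pglyrp1, Ramp2 and Slc2a1 were 0.459 and 0.404, 0.677 and 0.633, and 0.705 and 0.617 times.

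Also lower in both were the heat shock genes Hspb1 (0.498 and 0.605 times) and Hspa1b (0.579 and 0.459), Cd59a (0.404 and 0.438), Ctla2a (0.522 and 0.564), the focal adhesion gene Lims2 (0.551 and 0.366), Paqr5 (0.584 and 0.537) and Tinagl1 (0.486 and 0.610). Cd59a encodes a complement inhibitor, and its paralogue Cd59b ran the other way, with 12 UMIs in hippocampus DOCA-salt, against 2 in hippocampus sham, and 21 in cortex DOCA-salt, against 4 in cortex sham. Barcodes outside the endothelium held 6.41 CPM of Cd59a in hippocampus DOCA-salt, against 23.5 CPM in hippocampus sham, and 5.21 CPM in cortex DOCA-salt, against 12.9 CPM in cortex sham, so its difference too ran through whole libraries. Strain is not given for either group, and its part in these values was not tested. Reads of the 2 paralogues could be divided between them by the counting, so both are uncertain, as are Ctla2a and its paralogue Ctla2b. Hspa1b shares most of its sequence with Hspa1a, which stood at 0.922 and 0.674 times.

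**Figure D4:**
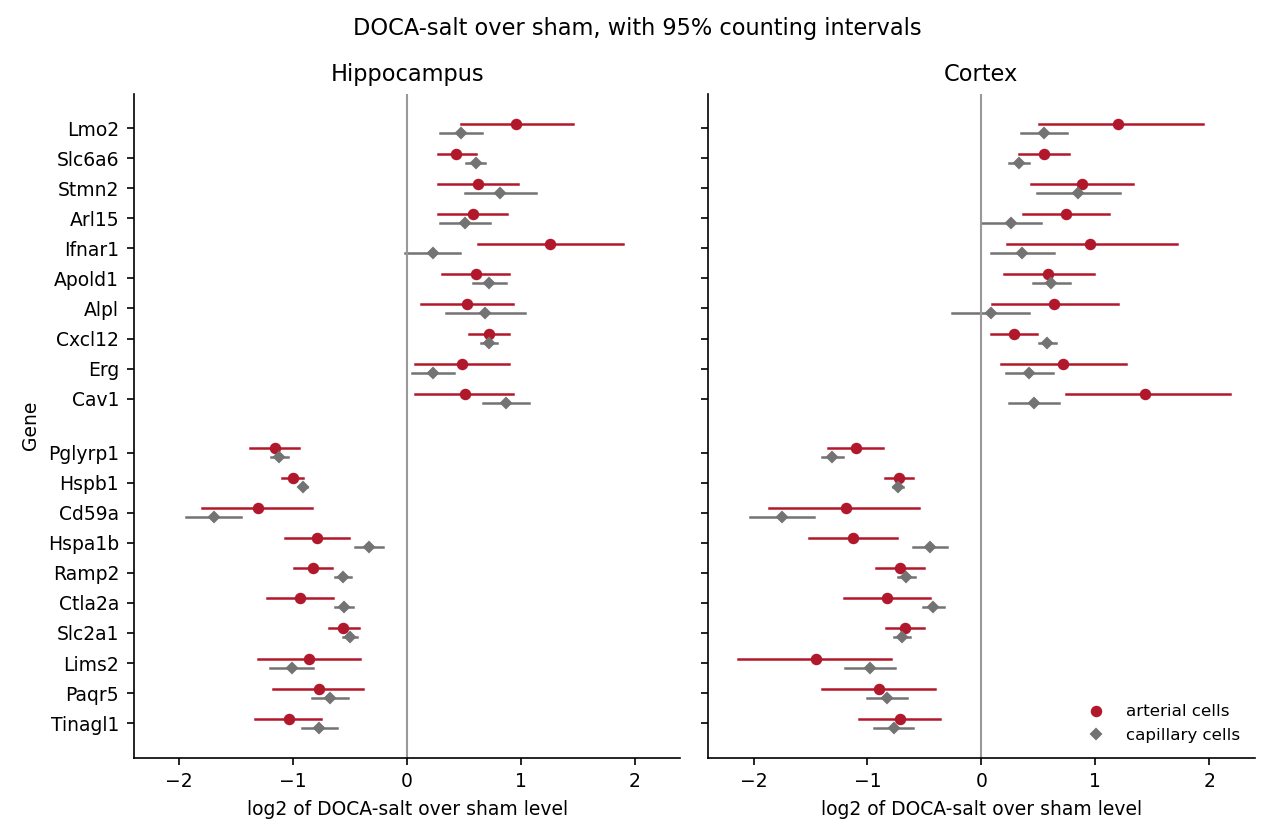
log2 ratio of DOCA-salt over sham (x axis) with 95% counting intervals for the 10 highest and 10 lowest endothelial genes over both tissues (hippocampus left, cortex right). Red circles are arterial cells and grey diamonds capillary cells; Ifnar1 lies at 2.38 and 1.94 times in arterial cells and at 1.17 and 1.28 times in capillary cells.

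In hippocampus alone the endothelial genes named as higher also held Ankrd37 (2.61 times), Tgfb2 (2.10), Rasd1 (1.73), Diaph1 (2.23) and Dusp6, a phosphatase that damps ERK signalling (1.89). Those named as lower held Rasgrp2 (0.298), Tbc1d4 (0.335), Castor1 (0.265) and Ctla2b (0.271). In cortex they were Klf4 (1.80), Klf2 (1.51), Bhlhe40 (1.99) and Plscr1 (2.34) on the higher side and Slc7a5, the large neutral amino acid transporter gene (0.261), Bst2 (0.423) and Rflnb (0.341) on the lower side. Slc7a5 had 89.9 CPM in cortex DOCA-salt, against 344 CPM in cortex sham, while capillary cells gave 0.611 times. Over all genes, Dbndd2 (0.354) and Cryab (0.393) were named as lower in hippocampus.

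Interferon-stimulated genes gave other ratios in arterial than in capillary cells of hippocampus. Interferon binds Ifnar1 and its partner and acts through factors, Irf9 among them, that bind a promoter element made of repeated GAAA blocks. The promoters of 4 interferon-stimulated genes are shown as examples from the list, picked with their values known. Bst2 and Isg15 had enough UMIs for a count in both tissues, while Ifit1 and Ifit3 had fewer than 50 UMIs in arterial cells of each tissue. Each runs from 250 bases before the RefSeq start site to 50 after it, on the strand of the gene (GRCm38.p6), with matches in capitals to a motif of GAAA, any 2 bases and GAAA on either strand.
Bst2: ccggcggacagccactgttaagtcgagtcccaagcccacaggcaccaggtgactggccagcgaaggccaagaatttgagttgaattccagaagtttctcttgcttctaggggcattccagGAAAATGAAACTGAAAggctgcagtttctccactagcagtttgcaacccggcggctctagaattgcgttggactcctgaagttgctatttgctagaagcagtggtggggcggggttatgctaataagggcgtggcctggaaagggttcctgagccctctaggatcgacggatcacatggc
Isg15: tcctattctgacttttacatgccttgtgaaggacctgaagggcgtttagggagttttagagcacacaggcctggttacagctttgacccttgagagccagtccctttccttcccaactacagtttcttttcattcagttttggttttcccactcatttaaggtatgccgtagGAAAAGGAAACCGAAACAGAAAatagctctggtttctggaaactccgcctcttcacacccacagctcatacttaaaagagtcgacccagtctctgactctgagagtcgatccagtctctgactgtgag
Ifit1: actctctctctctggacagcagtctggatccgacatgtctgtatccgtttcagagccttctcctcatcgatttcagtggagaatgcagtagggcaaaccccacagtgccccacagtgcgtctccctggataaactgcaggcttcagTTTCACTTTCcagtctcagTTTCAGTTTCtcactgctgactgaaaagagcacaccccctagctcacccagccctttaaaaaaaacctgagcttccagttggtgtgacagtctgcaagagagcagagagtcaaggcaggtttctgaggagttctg
Ifit3: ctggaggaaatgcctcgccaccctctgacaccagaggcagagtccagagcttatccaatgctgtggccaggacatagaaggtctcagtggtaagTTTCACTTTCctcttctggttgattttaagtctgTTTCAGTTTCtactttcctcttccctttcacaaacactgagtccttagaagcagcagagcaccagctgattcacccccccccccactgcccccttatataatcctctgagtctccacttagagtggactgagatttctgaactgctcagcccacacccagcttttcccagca
These are chr8:71537423-71537722 and chr4:156200769-156201068, both on the minus strand, and chr19:34640639-34640938 and chr19:34583279-34583578, both on the plus strand. Bst2 has 2 matches that overlap, Isg15 has 3 that overlap, and Ifit1 and Ifit3 have 2 each, apart from one another and on the other strand. At least 1 match is in 3.44% of all 32851 promoters of the same length and at least 2 are in 0.225%. Of 23 list members matched by symbol, 15 held a match in any of their promoters, beside 1079 of 27025 genes (3.99%) counted the same way. A match is a run of letters and no measured site.

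Bst2 (ENSMUSG00000046718), which tethers budding virus to the cell, had 184 CPM in arterial cells of hippocampus DOCA-salt, against 298 CPM in hippocampus sham (0.617 times, 0.458 to 0.825), and 128 CPM in cortex DOCA-salt, against 304 CPM in cortex sham (0.423 times, 0.282 to 0.623). Isg15, a ubiquitin-like modifier, had 297 CPM in hippocampus DOCA-salt, against 371 CPM in hippocampus sham (0.801 times, 0.628 to 1.02), and 209 CPM in cortex DOCA-salt, against 348 CPM in cortex sham (0.60 times, 0.431 to 0.831). The same genes in capillary cells stood at 0.532 and 0.534 times for Bst2 and at 0.597 and 0.414 times for Isg15. Ifit1, which binds viral RNA, had 23 UMIs in hippocampus DOCA-salt, against 24 in hippocampus sham (1.04 times, 0.561 to 1.93), and 18 in cortex DOCA-salt, against 10 in cortex sham (1.58 times, 0.691 to 3.83). Ifit3 had 24 UMIs in hippocampus DOCA-salt, against 24 in hippocampus sham (1.09 times, 0.591 to 2.0), and 13 in cortex DOCA-salt, against 9 in cortex sham (1.27 times, 0.501 to 3.36). In capillary cells Ifit1 stood at 0.535 and 0.489 times and Ifit3 at 0.496 and 0.463 times, below the arterial counting intervals in each case. These 2 genes enter no count, being below the minimum of 50 UMIs, and were picked for their ratios.

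Of 18 interferon list members with at least 50 UMIs in arterial cells of hippocampus, 1 was at least 1.5-fold higher in DOCA-salt and 4 lower (Bst2, Irf7, Usp18 and Gbp3), beside 9.04% higher and 7.94% lower of all arterial genes. The median log2 ratio was -0.08 in arterial cells, and -0.60 for the same 18 members in capillary cells, where 9 were lower and 0 higher, beside 3.40% lower and 7.76% higher of all capillary genes. Of the 3004 genes with enough UMIs in both cell types, 72 were lower and 124 higher in capillary cells. Without the cells rich in RNA of other types, 12 members had enough arterial UMIs, 1 higher and 4 lower, with a median of -0.20. Of all 2338 genes with enough UMIs in those remaining cells, 139 were higher and 151 lower. Summed over all 29 members, arterial cells held 6298 CPM in DOCA-salt, against 7013 CPM in sham. Capillary cells held 4876 CPM, against 6210 CPM. The arterial ratio lay above the capillary one for 14 of the 18 (77.8%), against 44.6% of all 3004 genes. In cortex, 8 members had enough UMIs, and 4 were lower (Isg15 0.60, Irf7 0.592, Bst2 0.423 and Xaf1 0.448 times) and 0 higher. Of all arterial genes there, 7.66% were lower and 6.92% higher. The median of the 8 members was -0.54 in arterial and -0.63 in capillary cells, where 5 were lower and 0 higher beside 4.47% and 4.16% of all capillary genes. Of the 2139 genes with enough UMIs in both cell types, 58 were lower and 31 higher in capillary cells. Without the cells rich in RNA of other types, 3 of 6 members were lower in arterial cells and 0 higher, with a median of -0.65. Of all 1219 genes with enough UMIs in those remaining cells, 104 were lower and 83 higher. The difference between the cell types was not tested, and arterial counts per gene are small.

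**Figure D5:**
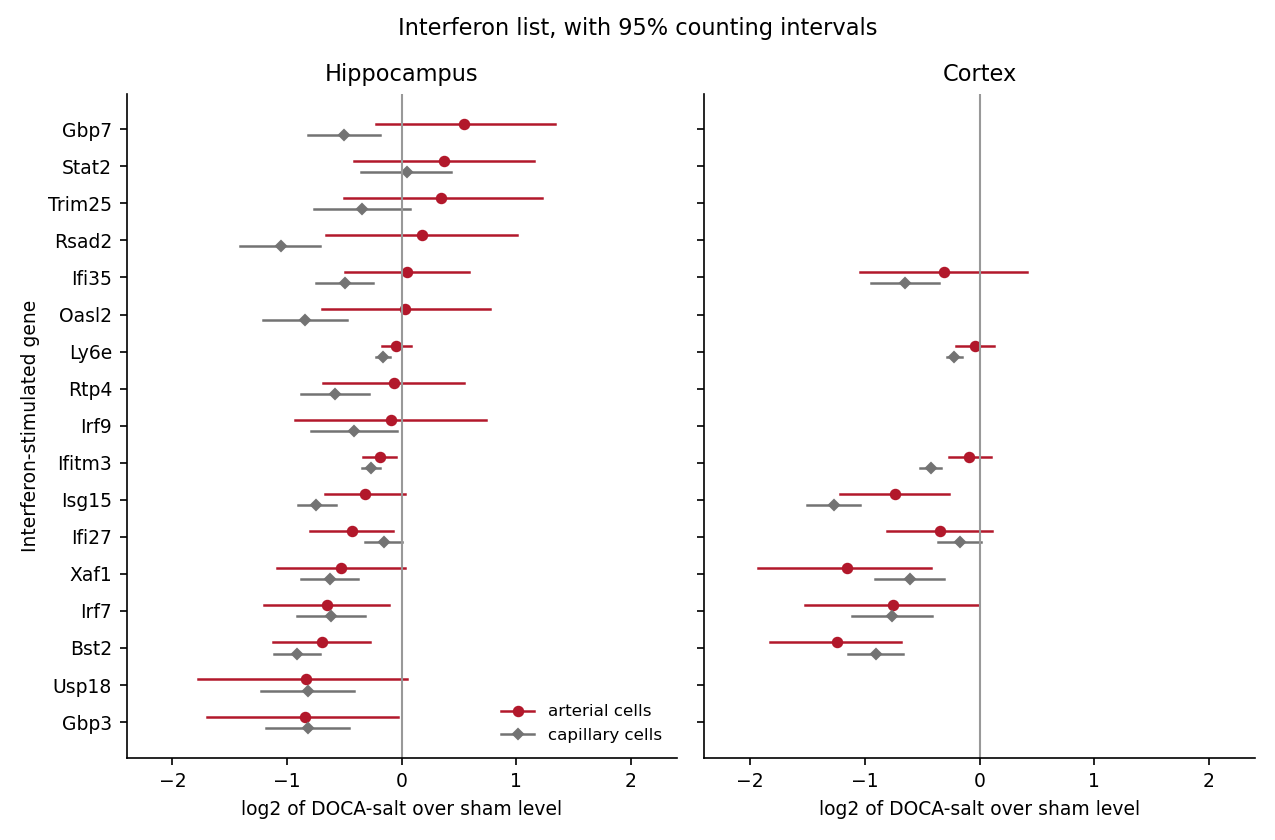
log2 ratio of DOCA-salt over sham (x axis) with 95% counting intervals for interferon list members with at least 50 UMIs in arterial cells of that tissue (17 of the 18 in hippocampus, left, and all 8 in cortex, right). Red circles are arterial cells and grey diamonds capillary cells; the hippocampal medians over all 18 are -0.08 and -0.60.

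Corticosteroid-responsive genes were read because DOCA acts on steroid receptors. Zbtb16 (ENSMUSG00000066687, chromosome 9, 48654297 to 48836222), which encodes a corticosteroid-inducible zinc finger factor, had 1 UMI in hippocampus DOCA-salt, against 45 UMIs in 31 cells of hippocampus sham, and 3 in cortex DOCA-salt, against 24 in 17 cells of cortex sham. That is 2.45 CPM against 102 CPM in hippocampus (0.0241 times, 0.000598 to 0.141) and 9.64 CPM against 87.9 CPM in cortex (0.110 times, 0.0211 to 0.361). Barcodes outside the endothelium held 17.4 CPM in hippocampus DOCA-salt, against 91.9 CPM in hippocampus sham, and 13.1 CPM in cortex DOCA-salt, against 64.6 CPM in cortex sham, so the difference was not confined to arterial cells. Tsc22d3, the glucocorticoid-induced leucine zipper gene, stood at 0.525 (0.393 to 0.697) and 0.550 times (0.373 to 0.802).

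Of 15 list members with enough UMIs in hippocampus, 4 were higher and 2 lower, with a median log2 ratio of -0.09, beside 9.04% higher and 7.94% lower of all genes. Of 11 in cortex, 0 were higher and 2 lower, with a median of -0.17, beside 6.92% higher and 7.66% lower of all genes. The higher ones were the metallothionein genes Mt1 (1.77 times) and Mt2 (1.80), Rasd1 (1.73) and the mineralocorticoid receptor gene Nr3c2 (1.55). Mt1 and Mt2, which astrocytes also express, stood at 1.25 and 1.22 times without cells rich in RNA of other types. The lower ones were Tsc22d3 and Sult1a1 (0.592) in hippocampus and Tsc22d3 and Klf9 (0.658) in cortex. Without the cells rich in RNA of other types, 1 of 13 members was higher and 1 lower in hippocampus. In cortex 2 of 8 were then higher and 1 lower. Of all genes in the remaining cells, 139 of 2338 were higher and 151 lower in hippocampus, and 83 of 1219 higher and 104 lower in cortex. Fkbp5, another known target, had 1 UMI in hippocampus DOCA-salt, against 2 in hippocampus sham, too few to compare.

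Flow-responsive genes, which shear stress induces through Klf2 and Klf4, were read next. Klf2 had 2168 CPM in cortex DOCA-salt, against 1439 CPM in cortex sham (1.51 times, 1.33 to 1.71), and Klf4 1114 CPM in cortex DOCA-salt, against 619 CPM in cortex sham (1.80 times, 1.49 to 2.18). In hippocampus Klf2 stood at 1.13 (1.04 to 1.22) and Klf4 at 1.12 times (0.991 to 1.26). Of 13 members in cortex, 4 were higher (Klf2, Klf4, Klf6 and Cav1) and 2 lower (Klf9 and S1pr1), with a median of -0.06, beside 6.92% higher and 7.66% lower of all genes. Of 15 in hippocampus, 1 was higher (Plpp3, 3.70 times and 1.07 times without the cells rich in RNA of other types) and 0 lower, with a median of -0.02. Of all genes there, 9.04% were higher and 7.94% lower. Klf2 and Klf4 were also at 1.54 and 1.67 times in cortical capillary cells. Nos3, a target of Klf2, stood at 0.748 (0.532 to 1.05) and 0.961 times (0.648 to 1.43).

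Vasoactive genes, without the rule gene Vegfc, had medians of -0.12 over 13 members in hippocampus and 0.02 over 11 in cortex. In hippocampus 0 were higher, and Ramp2 and Trpv4, a calcium channel gene (0.496 times), were lower by 1.5-fold or more. In cortex Cav1 was higher (2.71 times) and Ramp2 and Piezo1, a mechanosensitive channel gene (0.548 times), lower. Of all genes, 9.04% were higher and 7.94% lower in hippocampus, and 6.92% higher and 7.66% lower in cortex. Edn1 had 255 CPM in hippocampus DOCA-salt, against 233 CPM in hippocampus sham (1.10 times, 0.827 to 1.45), and 199 CPM in cortex DOCA-salt, against 227 CPM in cortex sham (0.877 times, 0.607 to 1.27).

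Heat shock genes, which encode chaperones, lay below the sham level for 11 members with enough UMIs of 14 in hippocampus, against 51.9% of all genes, and for 10 of 11 in cortex, against 50.6%. In hippocampus 4 were at least 1.5-fold lower and 0 higher (median -0.33), and in cortex 3 were lower and 0 higher (median -0.37), beside 7.94% and 7.66% of all genes lower. Hspb1, a small heat shock protein gene, had 3486 CPM in hippocampus DOCA-salt, against 7006 CPM in hippocampus sham, and 2993 CPM in cortex DOCA-salt, against 4944 CPM in cortex sham. Capillary cells gave medians of -0.34 and -0.30 for the same members. Immediate early genes, which tissue dissociation can induce, had 0 of 14 members past 1.5-fold in either tissue, with Fos at 1.18 and 1.12 times. Beside this, 9.04% of all genes were higher and 7.94% lower in hippocampus, and 6.92% and 7.66% in cortex.

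Barrier genes had medians of 0.04 over 28 members in hippocampus and -0.04 over 27 in cortex. Cldn5, the main claudin of brain endothelium, stood at 0.999 (0.930 to 1.07) and 1.10 times (0.998 to 1.21). Slc7a5 and the efflux pump gene Abcc4 (0.637 times) were lower in hippocampus, and in cortex Slc7a5 and Slc2a1 were lower and Slc16a1 higher (1.53 times, 0.891 to 2.67). Arterial genes outside the rule had medians of 0.48 over 8 members in hippocampus and 0.29 over 7 in cortex, with 2 higher and 0 lower in each tissue. Those were Cxcl12 and Stmn2 in hippocampus and Alpl and Stmn2 in cortex. The barrier and arterial counts stand beside 9.04% higher and 7.94% lower of all genes in hippocampus, and 6.92% and 7.66% in cortex. Jag1, with 8 UMIs in hippocampus DOCA-salt, against 29 in hippocampus sham, stood at 0.300 times (0.118 to 0.672), below the UMI minimum for a count.

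Matrix genes in hippocampus, without the rule gene Mgp, had 3 of 9 members lower by 1.5-fold, beside 7.94% of all genes (Col4a2 0.479, Timp3 0.652 and the perlecan gene Hspg2 0.637 times), 0 higher and a median of -0.42. With Mgp the 10 members had medians of -0.41 in arterial and 0.08 in capillary cells. In cortex 1 of 9 was higher (the laminin gene Lamb2, 1.79 times) and 0 lower, with a median of 0.06. Of all genes in cortex, 6.92% were higher and 7.66% lower. Smooth muscle RNA in the arterial cells stood at 277 CPM in hippocampus DOCA-salt, against 601 CPM in hippocampus sham, and at 466 CPM in cortex DOCA-salt, against 721 CPM in cortex sham. Of 8 smooth muscle markers, Cnn1 was at 0 in both hippocampus libraries and in cortex DOCA-salt, and 3 cells held 67.7% of the list's UMIs in hippocampus sham and 71.6% in cortex sham. Pericyte markers stood at 893 CPM in hippocampus DOCA-salt, against 1227 CPM in hippocampus sham, and at 2001 CPM in cortex DOCA-salt, against 1480 CPM in cortex sham. Their part in the matrix values was not tested. Without the cells rich in RNA of other types, Col4a2 stood at 0.491, Timp3 at 0.655 and Hspg2 at 0.611 times in hippocampus.

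Activation genes were read with the limit that the rule sets on them. Of 6 members in hippocampus 2 were higher (Tnfrsf1a, 2.02 times, and Cebpb, 2.05 times) and 0 lower, and of 5 in cortex 2 were higher (Vwf, 2.21 times, and Cebpd, 1.94 times) and 0 lower. Beside this, 9.04% of all genes were higher and 7.94% lower in hippocampus, and 6.92% and 7.66% in cortex. Vwf is among the 8 venous or activation genes that the rule limits. The rule removed 15 cells of hippocampus DOCA-salt, 5 of hippocampus sham, 5 of cortex DOCA-salt and 3 of cortex sham that had 2 arterial genes together with 3 or more venous or activation genes. With those cells kept, Lcn2, an acute-phase protein gene, had 30 UMIs in hippocampus DOCA-salt, against 0 in hippocampus sham, and 13 in cortex DOCA-salt, against 0 in cortex sham. With the limit it had 1 UMI in hippocampus DOCA-salt and 0 in the other libraries. Vcam1, an adhesion molecule gene, had 47 UMIs in hippocampus DOCA-salt, against 23 in hippocampus sham, without the limit (1.99 times, 1.19 to 3.44), and 12 against 17 with it. In cortex Vcam1 had 28 UMIs in DOCA-salt, against 22 in sham, without the limit (1.08 times, 0.594 to 1.98), and 12 against 10 with it. The levels of these genes in the arterial cells are therefore limited by the rule.

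Of the remaining lists, NF-kappa B and inflammatory genes had 1 of 7 higher in hippocampus (Cxcl12) and 1 of 5 in cortex (Nfkbiz, 1.72 times), with 0 lower. Antigen presentation genes had 0 of 13 past 1.5-fold in hippocampus and 1 of 9 lower in cortex (Psmb8, 0.585 times). Hypoxia and glycolysis genes had 2 of 11 higher in hippocampus (Ankrd37 and Eno1, 1.58 times) and 1 lower (Pgk1, 0.629 times), and 1 of 9 higher in cortex (Eno1, 2.29 times) and 1 lower (Slc2a1). Without the rule genes Vegfc and Sema3g, the VEGF, angiopoietin and TGF-beta list had 1 of 23 higher in hippocampus (Tgfb2) and 1 of 21 higher in cortex (Smad7, 2.02 times), with 1 lower there (Smad6, 0.635 times). Without the rule gene Hey1, the Notch list had 1 of 11 lower in hippocampus (Mfng, 0.603 times) and 1 of 8 higher in cortex (Erg). These shares are to be read beside 9.04% higher and 7.94% lower of all genes in hippocampus, and 6.92% and 7.66% in cortex.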

How the data were processed

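Per the labels' protocols, cells were captured with a droplet kit that counts 3' ends. The authors deposited 1 matrix of UMI counts per library, with 32285 genes and no cell annotation. fastp, STAR, Subread and Seurat and the build GRCm38 are named per the submitters' processing notes, without versions. Names and coordinates were taken from GENCODE vM21 for 32158 of the gene IDs, and promoters from RefSeq (GRCm38.p6).

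Cells were rebuilt here with Python 3.11.15 (numpy 2.4.6, scipy 1.17.1, pandas 2.3.3, scanpy 1.11.5, matplotlib 3.10.9) by the marker rule given above. Doublets were not removed. Scrublet at an expected rate of 0.08 called 4 to 7 arterial cells per library, and leaving them out was an alternative. UMIs were summed per library and set over the summed total. Library totals ran from 66824217 to 70173987 UMIs. Ratios have exact intervals conditional on the summed count and shares exact Clopper-Pearson intervals, and both cover counting error only. A gene counted as higher or lower at 1.5-fold with at least 50 UMIs over the libraries compared. The ratio code was tested on simulated data.

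Genes were named by the interval bound nearest to 1, 6 per direction in each tissue and in both tissues, leaving out rule genes, gene models, mitochondrial, ribosomal and haemoglobin genes and markers of other cell types. Endothelial genes were ranked likewise, 8 per direction in each tissue and 10 in both, with 14 genes higher and 10 lower in arterial cells. The second ranking, the step that leaves out cells rich in other RNA, the lists without rule genes and the choice of Cd59b were made after the data were examined. The members and lists were chosen with earlier results of these data known. Some single-gene results are not reported here.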

Additional observations from a re-analysis of the deposited data

Results flagged for a closer look

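Genes whose DOCA-salt over sham ratio in arterial cells lay past 1.5-fold in opposite directions in the 2 tissues are given here. The difference between the tissues was not tested, since there was 1 library per group. Most are genes that glia express. Ank2 stood at 1.93 in hippocampus and 0.344 in cortex, Lsamp at 7.49 and 0.599, and Slc1a2, the astrocyte glutamate transporter gene, at 2.24 and 0.566. Oligodendrocyte and myelin genes ran the other way. Cldn11 stood at 0.444 in hippocampus and 2.17 in cortex, Cnp at 0.490 and 1.54, and Mbp at 0.486 and 1.94. Dbndd2 stood at 0.354 and 1.61, Ptgds at 0.567 and 2.10, Qdpr at 0.551 and 2.27, and Trf at 0.535 and 2.24. Vtn, a pericyte gene, stood at 0.583 in hippocampus and 1.63 in cortex. Summed astrocyte RNA in the arterial cells was higher in DOCA-salt in hippocampus and lower in cortex, and summed oligodendrocyte RNA lower in hippocampus and higher in cortex. Their part in these ratios was not tested.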

How the results depend on the processing

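No paired analysis was possible because each group is 1 library, and for the same reason none could be left out. The share ratio in hippocampus stayed between 0.811 and 1.05 over the alternatives and that in cortex between 1.40 and 2.25, with 2.18 (1.18 to 4.18) for at least 3 rule genes and 2.25 (1.22 to 4.29) for Gkn3, Bmx, Sema3g and Vegfc alone. Counts of genes past 1.5-fold depend on the number of cells and UMIs. In the order higher and lower in hippocampus, then higher and lower in cortex, they were 70, 84, 69 and 83 with at least 3 rule genes, 81, 101, 59 and 83 with those 4 genes alone, 116, 135, 62 and 73 at 3000 UMIs per cell, and 139, 151, 83 and 104 without cells rich in other RNA. With a minimum of 20 UMIs they were 968, 720, 707 and 581, and with 1 UMI in each library 2740, 2083, 2492 and 2253. The genes compared changed as well, from 3009 in hippocampus and 2140 in cortex. They were 1118 and 767 with at least 3 rule genes, and 1239 and 756 with the 4 genes alone. At 3000 UMIs they were 1422 and 879, and without cells rich in other RNA 2338 and 1219. A minimum of 20 UMIs gave 6274 and 5064, and 1 UMI in each library 11814 and 11193. Genes past 1.5-fold between arterial and capillary cells numbered 70 higher and 76 lower with at least 3 rule genes, 79 lower with the 4 genes alone, 28 higher with no mural gene allowed and 19 higher at 3000 UMIs. The sign of the log2 ratio of DOCA-salt over sham turned for some genes that are not mainly endothelial. With at least 3 rule genes it was -1.11 for Gpc5, -0.52 for Lsamp, -1.29 for Cadm2, -0.55 for Npas3, 0.03 for Qdpr and -0.16 for Ank2 in hippocampus, and 1.94 for Lsamp, -0.22 for Dbndd2, 1.85 for Kcnk1 and 1.85 for Ank2 in cortex. With the 4 genes alone it was 1.60 for Lsamp and 0.90 for Ank2 in cortex, without Scrublet doublets -0.12 for Dbndd2 and -0.32 for Cldn11 in cortex, and without cells rich in other RNA -0.01 for Gpc5 in hippocampus. The cause was not tested. At 273043 to 442621 UMIs per group, most genes had too few UMIs to compare.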

Other observations

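The predicted gene Gm8797, picked after its values were seen, had 437 UMIs in 84 of 88 arterial cells of hippocampus DOCA-salt, against 7 UMIs in 6 of 91 cells of hippocampus sham, 67.8 times (32.6 to 170). It had 238 UMIs in 65 of 75 cells of cortex DOCA-salt, against 6 UMIs in 6 of 59 cells of cortex sham, 34.8 times (15.7 to 95.7). Capillary cells gave 28.9 and 32.2 times. Barcodes outside the endothelium held 686 CPM in hippocampus DOCA-salt, against 31.8 CPM in hippocampus sham, and 537 CPM in cortex DOCA-salt, against 15.4 CPM in cortex sham, so the gene separated whole libraries.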
